A study of Mus musculus with 2 samples.

Results

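GC-poor promoter peaks are the Tcf1 ChIP-seq peaks of naïve CD8+ T cells that lay at a protein-coding start site but in sequence of low GC content. A deposited peak on chromosomes 1 to 19 was counted as one when its summit was within 1 kb of a coding start site (mm9, GENCODE vM1), no head-to-head start of another coding gene was within 1 kb of the summit, and the 201 bp centred on the summit had a GC content under 50%. This rule gave 787 peaks at 733 genes, which were 3.62% of the 21764 peaks on these chromosomes, of 22286 deposited in all. The same coding starts gave 6091 GC-rich one-directional promoter peaks and 850 bidirectional promoter peaks, and 14036 peaks lay away from coding starts.

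The study asked where Tcf1 is bound in these cells, with 1 WT library set against 1 Tcf1-deficient library, both precipitated with a single antiserum. Both samples were sorted as GFP+ TCRbeta+ CD62Lhi CD44lo-med CD8+ naïve cells. The antiserum was raised in rabbits against full-length Tcf1. With 1 library per genotype no replicate check was possible, and the intervals given for peaks cover counting error or the spread over peaks only. The genotype field names the control Tcf1-/-Lef1-/-, its title says Tcf1-deficient, and the methods describe Cd4-Cre+ Tcf7 fl/fl mice, whereas the series' design names hCD2-Cre, a Cre most active in mature T cells, with a Rosa26 GFP reporter. The control is called by its title, and whether it lacked Lef1 as well is not settled by these sources. The study's methods give 1 age range and both sexes for all its mice, without saying which animals went into these libraries.

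Tcf1, encoded by Tcf7, binds DNA through a high mobility group box that recognises an A/T-rich element, and with Lef1 it maintains the identity of T lineage cells. Most mammalian coding genes start in GC-rich CpG islands that are open in many tissues. GC-poor promoters are more often those of tissue-restricted genes, and many genes of immune receptors are of this kind. Runx and ETS family factors are DNA-binding proteins abundant in T cells.

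A few summit windows are shown because the results on sequence turn on them, read in the direction of the gene from mm9. These 4 are the high-confidence windows of largest pileup with the Tcf/Lef core ATCAAAG on either strand, and capitals mark that core.
Rfx3, chr19:28084384-28084584 (minus strand): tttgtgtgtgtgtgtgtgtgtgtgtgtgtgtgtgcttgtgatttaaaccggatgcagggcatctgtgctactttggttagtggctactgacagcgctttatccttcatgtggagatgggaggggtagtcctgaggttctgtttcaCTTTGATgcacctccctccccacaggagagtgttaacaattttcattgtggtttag
Utrn, chr10:12533369-12533569 (minus strand): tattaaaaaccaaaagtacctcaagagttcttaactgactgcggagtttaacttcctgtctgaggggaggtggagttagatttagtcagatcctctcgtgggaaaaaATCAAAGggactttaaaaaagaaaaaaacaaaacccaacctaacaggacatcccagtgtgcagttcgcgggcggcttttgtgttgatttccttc
A630007B06Rik, chr19:56895846-56896046 (minus strand): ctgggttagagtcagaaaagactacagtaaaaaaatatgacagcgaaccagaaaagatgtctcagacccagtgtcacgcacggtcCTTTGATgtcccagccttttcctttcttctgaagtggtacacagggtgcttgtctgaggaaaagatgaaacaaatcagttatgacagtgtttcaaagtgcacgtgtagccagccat
Wdr37, chr13:8869447-8869647 (minus strand): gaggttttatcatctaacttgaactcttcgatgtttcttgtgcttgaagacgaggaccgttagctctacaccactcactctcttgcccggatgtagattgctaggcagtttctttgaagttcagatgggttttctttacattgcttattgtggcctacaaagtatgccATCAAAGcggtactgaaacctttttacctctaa
The next 3 are among the largest with the Runx core TGTGGTT on either strand, in capitals. Annotated exon sequence was trimmed, which shortened the Card6 window to 96 bases.
Tigit, chr16:43664300-43664500 (minus strand): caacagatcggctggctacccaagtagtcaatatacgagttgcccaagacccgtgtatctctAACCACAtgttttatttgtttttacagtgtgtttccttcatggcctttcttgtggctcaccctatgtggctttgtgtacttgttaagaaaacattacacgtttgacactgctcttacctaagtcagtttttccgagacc
Card6, chr15:5058540-5058635 (minus strand): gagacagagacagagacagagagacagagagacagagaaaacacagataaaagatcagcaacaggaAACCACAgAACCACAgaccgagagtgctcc
Ssh2, chr11:77162574-77162774 (plus strand): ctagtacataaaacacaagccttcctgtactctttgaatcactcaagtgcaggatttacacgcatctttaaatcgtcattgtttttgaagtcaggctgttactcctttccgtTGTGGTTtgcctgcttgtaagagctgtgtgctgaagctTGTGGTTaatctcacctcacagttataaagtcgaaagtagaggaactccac
The last 2 are among the largest with the ETS core AGGAAGT on either strand, in capitals.
Thrb, chr14:18834528-18834728 (plus strand): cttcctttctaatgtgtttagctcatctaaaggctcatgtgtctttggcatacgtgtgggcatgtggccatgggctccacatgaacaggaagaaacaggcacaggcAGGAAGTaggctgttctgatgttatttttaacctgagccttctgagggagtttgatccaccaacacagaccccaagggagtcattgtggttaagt
Ifrd1, chr12:40975442-40975642 (minus strand): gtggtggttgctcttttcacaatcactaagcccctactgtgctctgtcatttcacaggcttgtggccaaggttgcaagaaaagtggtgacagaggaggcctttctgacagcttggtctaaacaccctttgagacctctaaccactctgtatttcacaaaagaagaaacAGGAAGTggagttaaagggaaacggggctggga
Runx cores stood in pairs in the Card6 and Ssh2 windows. Cores of another kind are not in capitals, among them a Runx core in the Rfx3 and Thrb windows and an ETS core in the Utrn window.

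The largest pileups in the list belonged to predicted genes in repeated sequence. Pileup is the number of WT fragments that cover a summit, and the control level is the fragment number expected there from the Tcf1-deficient library after scaling. The 18 largest pileups, 8121 to 81986 fragments, were all at predicted genes with names starting in Gm. The largest of all was at Gm10800 on chromosome 2, where 81986 WT fragments stood over a control level of 52053, and the next was at Gm10722 on chromosome 9, with 36377 against 27064. High pileup there came with a high control level. In all, 20 peaks had a control level over 50 fragments, of which 16 lay in the first 4 Mb of chromosome 9, 2 on chromosome 2 and 2 at Sfi1, a centrosomal protein gene. Their fold enrichment, the WT pileup plus 1 over the control level plus 1, was 1.34 to 2.34, and 0 of the 20 reached 4. The 32 bases at the summit occurred more than once in the genome in 18 of these 20, with a median of 27.5 copies, and in 62 of the other 767. The 20 were 2.54% of GC-poor promoter peaks. A control level over 50 fragments was also found at 1 of 6091 GC-rich one-directional promoter peaks and at 115 of 14036 peaks away from coding starts (0.82%). Over all autosomal peaks it was found at 136 of 21764 (0.62%). The part of repeated sequence in the pileups of these 20 peaks was not tested.

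**Figure D1:**
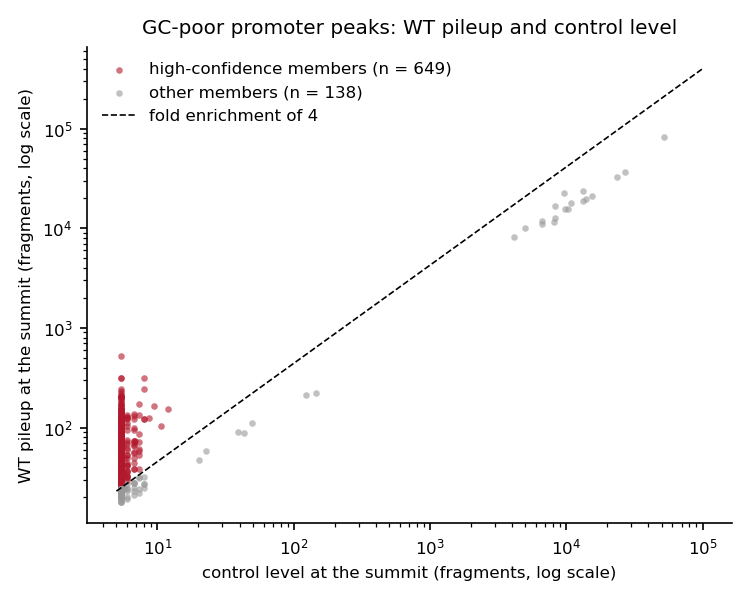
WT pileup against the control level at the summit of the 787 GC-poor promoter peaks, both in fragments on log axes. The 649 high-confidence peaks (red) stand above the dashed line of a fold enrichment of 4 near the lowest control level of 5.42, and the 18 peaks at the upper right, at control levels of 4132 to 52053, lie below it.

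High-confidence peaks had to reach a 4-fold enrichment with p below 1e-05 and q below 0.05. They made up 649 of the 787, or 82.5% (95% Wilson interval 79.7 to 85.0). Over all autosomal peaks the share was 86.2%, and over GC-rich one-directional promoter peaks it was 87.1%. The difference from the latter was -4.65 percentage points (Newcombe 95% interval -7.58 to -2.00), and without peaks of a control level over 50 fragments it was -2.51 points, with an interval of -5.36 to 0.02 that includes 0. Under 40% GC, 32 of 57 peaks were high-confidence, against 200 of 234 between 40 and 45% and 417 of 496 between 45 and 50%. Of the 20 peaks with a control level over 50 fragments, 18 were in the lowest band. Without these 20 the shares were 82.1% (67.3 to 91.02) of 39, 85.8% (80.8 to 89.7) of 233 and 84.2% (80.8 to 87.2) of 495, and these intervals overlapped.

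At the GC limit itself the pileups on each side overlapped. The 117 peaks between 49 and 50% GC had a median pileup of 37 fragments (34 to 47), and the 159 one-directional promoter peaks between 50 and 51% had 39 (34 to 46). Just inside were peaks at Aim1 (313 fragments), Kcnip2 (202), Zkscan16 (123), Gbp10 (110) and Scarb2 (95). Just outside were peaks at Zcchc11 (320), Slfn5 (196), Nsun4 (156), BC100451 (134) and Irak2 (131).

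Among the high-confidence peaks, the 20 of largest pileup lay at genes of varied function. This ranking was set after the values at the predicted genes had been seen. Rfx3, a winged-helix transcription factor, had the largest, 521 fragments (Poisson 95% interval 477 to 568) against a control level of 5.42. This level is a genome-wide floor, at which 673 of the 787 peaks (85.5%) and 83.4% of all autosomal peaks stood, and at the floor fold enrichment is the pileup rescaled by a constant and not a local measure of the Tcf1-deficient library. Its fold enrichment was 81.3, its summit was 796 bp downstream of the start in an intron, and its width was 2318 bp. Its Poisson interval did not overlap that of any other peak named here.

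Ptpn22 and Aim1 had pileups whose Poisson intervals overlapped. Ptpn22, a phosphatase that dampens T cell receptor signalling, had 314 (280 to 351) and a fold enrichment of 49.1, with the summit 69 bp upstream. Aim1 had 313 fragments in a coding exon, over a control level of 8.02, which gave a fold enrichment of 34.8.

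Peaks between 200 and 250 fragments followed. Tigit, an inhibitory receptor of T and NK cells, had 243 fragments with the summit 103 bp upstream of the start. Gbp4, an interferon-inducible guanylate-binding GTPase, had 242 with the summit 9 bp upstream. Art2b, an ADP-ribosyltransferase on the T cell surface, had 234. Pou2af1, a coactivator best known from B cells, had 224, and Card6, a caspase recruitment domain protein, had 214 with the summit 4 bp downstream of the start. The Poisson intervals of these 5 overlapped one another, so their order is not resolved.

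The rest of the 20 ranged from 174 to 208 fragments. Metabolic and signalling enzymes among them were Gpd2, the mitochondrial glycerol-3-phosphate dehydrogenase (208), Ssh2, a phosphatase that activates cofilin (202), and Cmah, a hydroxylase of sialic acid (198). Regulators of RNA and transcription were Zfp36l1, which binds AU-rich messages (203), and Crem, a cAMP-responsive factor (174). Prcc had 203 fragments, Kcnip2, a potassium channel-interacting protein, had 202, the dystrophin relative Utrn had 198, Hemgn and Leprotl1 had 183 each, and A630007B06Rik had 174. Of the 20, 7 had their summit within 100 bp of the start and 7 lay more than 500 bp away. The windows of 3 held the Tcf/Lef core, 5 the Runx core and 3 an ETS core, and 12 held none of these. The 10 largest fold enrichments, from 81.3 down to 31.8, included those of Rfx3, Ptpn22, Tigit, Art2b, Pou2af1, Aim1, Card6, Gpd2 and Zfp36l1.

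**Figure D2:**
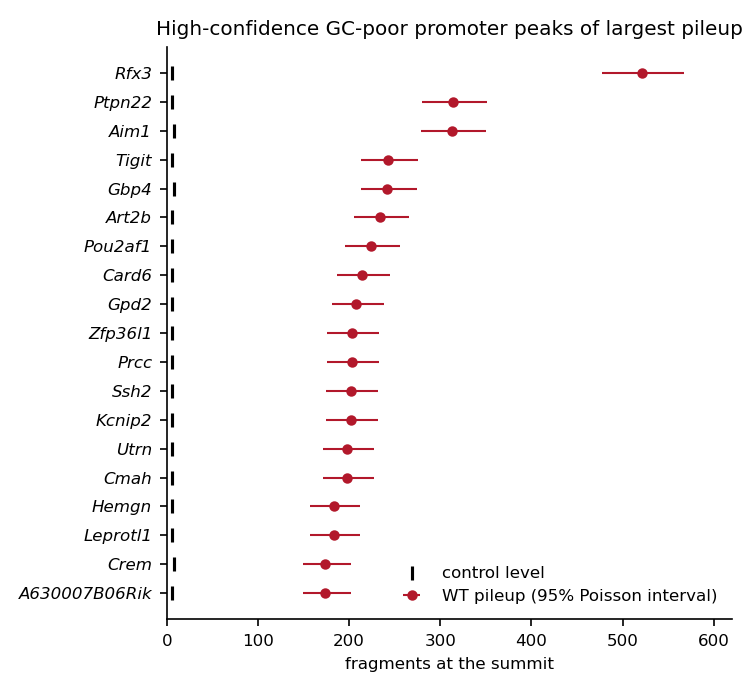
WT pileup (red, with 95% Poisson intervals) and control level (black bars) at the summits of 19 of the 20 high-confidence GC-poor promoter peaks of largest pileup, in fragments. Rfx3 at 521 stands apart from Ptpn22 at 314 and Aim1 at 313, and all control levels drawn are under 10.

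The peaks were of ordinary height, with an upper tail longer than that of GC-rich promoter peaks and close to that of all peaks. The median pileup was 42 fragments (order-statistic 95% interval 39 to 44), with quartiles of 28 and 69. GC-rich one-directional promoter peaks had a median of 38 (38 to 39) with quartiles of 29 and 55, so the lower quartiles were close and the upper ones apart. The upper quartile was 65 over all autosomal peaks and 72 away from coding starts. The difference in median log2 pileup was 0.14 (0.031 to 0.21). Without peaks of a control level over 50 fragments it was 0.11, and with only the 5'-most start of each gene it was also 0.11, with intervals of -0.0062 to 0.18 and -0.037 to 0.21 that included 0. High-confidence peaks of at least 100 fragments numbered 96, which is 12.2% (10.1 to 14.7) against 6.17% of GC-rich one-directional promoter peaks, a difference of 6.03 points (3.83 to 8.56). Over all autosomal peaks that share was 12%, and away from coding starts it was 14.9%. A fold enrichment of at least 20 was reached by 44 peaks, 5.59% (4.19 to 7.42), where the share over all autosomal peaks was 6.94%. That share was above the 2.99% of GC-rich one-directional promoter peaks by 2.60 points (1.13 to 4.48) and below the 8.95% of peaks away from coding starts by 3.36 points, the interval of this difference being -4.84 to -1.47.

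Tcf/Lef and Runx cores were in excess at the summits of GC-poor promoter peaks, against the flanks and against the same letters read backwards. The Tcf/Lef core was found in 95 summit windows, 12.1% (9.98 to 14.5), compared with 3.11% of windows 2 kb to each side and 9.7% of all autosomal summits. The excess over the flanks was 8.96 points (6.65 to 11.5). In GC-rich one-directional promoter peaks the core was at 3.25% of summits and 3.54% of flanks, a difference of -0.29 points (-0.83 to 0.28). Those flanks had a median GC content of 44.8% against 64.7% at the summits, a gap that the rule sets. The core read backwards was at 4.70% of GC-poor promoter summits, 7.37 points below the core (4.67 to 10.1), and at 1.58% of GC-rich one-directional promoter summits, 1.67 points below it (1.13 to 2.23). In windows of the same length at coding starts, the core was in 3.64% of the 5447 starts of GC under 50% and in 1.77% of all 21410.

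The Runx core was more frequent still. It was in 134 summit windows, 17.0% (14.6 to 19.8), against 4.57% of the flanks and 14.8% of all autosomal summits, and read backwards it was in 3.18%. It was in 3.398% of GC-rich one-directional promoter summits, where read backwards it was in 1.44%, and in 6.74% of GC-poor coding starts and 3.27% of all coding starts. Of all 7-base words, this one had the largest excess of summits over flanks, the ETS word AGGAAGT had rank 3 and the Tcf/Lef core rank 6. As all members are A/T-rich by the rule, the closer comparison is with the 8305 peaks away from coding starts whose summit windows were also under 50% GC. Of those, 14.9% held the Tcf/Lef core and 23.6% the Runx core. GC-poor promoter peaks were below them by 2.87 points for the Tcf/Lef core (difference -2.87, -5.11 to -0.30) and further below for the Runx core (difference -6.53, -9.16 to -3.60).

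ETS sequences came in both forms. An ETS core, with or without a CpG, was in 158 summit windows (20.1%, 17.4 to 23.02) against 5.21% of the flanks, and 21.6% of all autosomal summits held one. The form with a CpG, CGGAAGT, was in 5.97% (4.52 to 7.85), between the 13.8% of GC-rich one-directional promoter peaks and the 1.79% of peaks away from starts of GC under 50%. It was in 1.29% of GC-poor coding starts and in 6.94% of all. The form without it, AGGAAGT, was in 14.99%, against 7.88% of GC-rich one-directional promoter peaks, and was in 8.004% of GC-poor coding starts and 6.31% of all.

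Other promoter and T cell motifs were also searched. The NF-Y box AGCCAAT was in 5.46% of summit windows against 2.35% of the flanks, and in 7.52% of GC-rich one-directional promoter peaks. The Sp/KLF box CCCGCCC was also in 5.46%, against 1.21% of the flanks, a difference of 4.26 points (2.72 to 6.12). In the GC-rich class it was in 43.2%, which the GC limit itself bears on. The CRE TGACGTCA was in 1.40% against 0.064% of the flanks. The AP-1 site TGAGTCA (3.68% against 3.37%), the GATA site AGATAAG (2.54% against 2.48%) and the E-box ACAGCTG (5.34% against 3.81%) differed from their flanks by amounts whose intervals included 0. The STAT site TTCCNGGAA was in 1.65% against 0.445%, a difference whose interval was 0.377 to 2.38 points. The TATA box TATAAAA was in 2.80% of summit windows, below the 5.65% of the flanks. It was in 0.591% of GC-rich one-directional promoter summits, and the GC limit bears on this order too, as the box holds only A and T. Within 20 to 40 bp upstream of the start, the shorter word TATAAA on the gene's own strand was found for 1.02% (0.516 to 1.99) of GC-poor and 0.69% (0.511 to 0.931) of GC-rich one-directional promoter peaks.

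**Figure D3:**
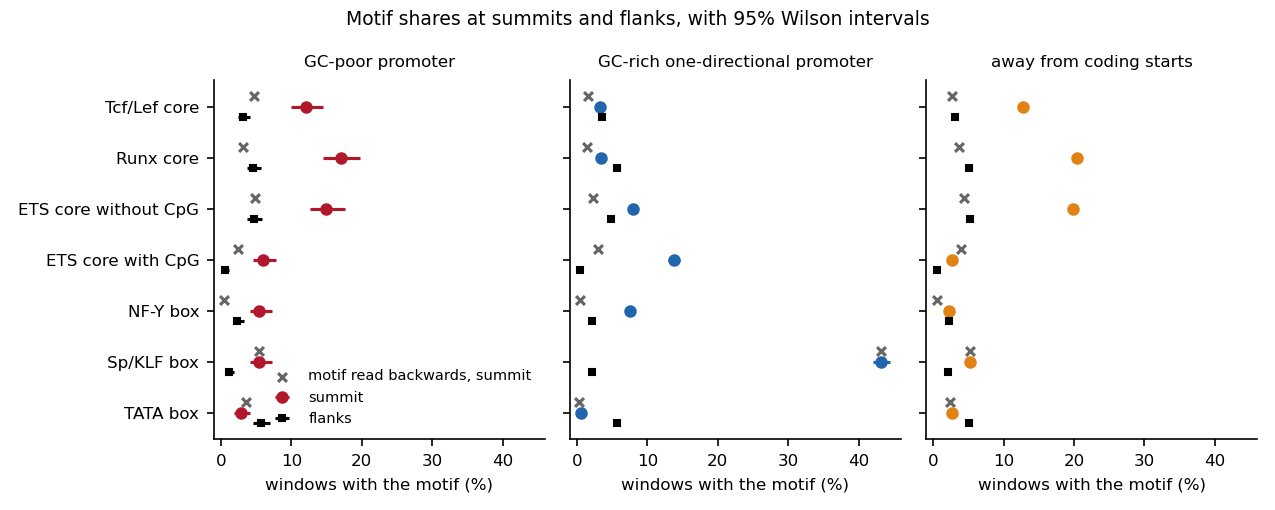
Percentage of 201-bp windows that hold each motif on either strand, at summits (coloured, with 95% Wilson intervals), in flanks 2 kb away (black squares) and for the motif read backwards at summits (crosses). In GC-poor promoter peaks the Tcf/Lef core (12.1%) and the Runx core (17.0%) stand above their flanks and above the motifs read backwards. In GC-rich one-directional promoter peaks they stand above the motifs read backwards but not above the flanks, which are of lower GC content than the summits.

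Of the Tcf/Lef, Runx and ETS cores, the Tcf/Lef core had the lowest median distance to the summit. Its nearest copy was a median of 25 bp away (quartiles 8 and 46.5), and 48 of 95 copies (50.5%) were within 25 bp. The medians were 34 bp for the Runx core (quartiles 15 and 53.75) and 36 and 39 bp for the ETS cores with and without a CpG. All these quartile ranges overlapped. The GATA site had 10 of 20 copies (50%) within 25 bp. Peaks with the Tcf/Lef core had a median pileup of 51 fragments (38 to 55) and those without it 41 (38 to 44). With the Runx core the median was 49.5 (42 to 55) and without it 40 (37 to 43). Of the 3 kinds of core, 448 peaks held none, 294 held 1, 42 held 2 and 3 held all. In this order the median pileups were 38.5 (36 to 42), 44.5 (39 to 50), 53 (41 to 67) and 77 fragments, the last without an interval. The intervals of neighbouring sets overlapped, and such counts were not taken for other classes of peak.

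The shares of peaks with a core were also taken by fold enrichment. The Runx core was in 12.6% of the 239 peaks with a fold enrichment of 4 to 6, in 19.6% of 219 from 6 to 10, in 21.8% of 147 from 10 to 20 and in 27.3% of 44 at 20 or more. The highest of these ranges was above the lowest by 14.7 points (2.79 to 29.7). For the Tcf/Lef core the shares in the same order were 11.3%, 11.4%, 16.3% and 15.9%, the last being 7 of 44, and the interval of the difference between the highest and the lowest, -4.62 to 18.5 points, included 0. The peaks of largest pileup that held the Tcf/Lef core, Gm10800 aside, were those of Rfx3, Utrn, A630007B06Rik, Wdr37 (155 fragments), Tctex1d1 (145), Tnks2 (142), the Rab3gap1 gene of a Rab GTPase-activating subunit (132), Arhgef3 (126), Shoc2 (123) and Pon2 (120). Of these 10, 0 had the summit within 100 bp of the start, 5 were more than 500 bp away, and 7 were in introns.

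Summits of GC-poor promoter peaks were spread widely around the start. Within 100 bp of it were 175 of 787 (22.2%, 19.5 to 25.3), against 55.6% of GC-rich one-directional promoter peaks, and more than 500 bp away were 41.9% against 8.87%. The median position was 47 bp upstream (-47), with quartiles at -307 and 502.5 bp. Introns held 353 summits (44.9% against 17.7% in the GC-rich class), sequence upstream of the gene held 314, untranslated exons 89 and coding exons 31. GC content is highest close to many starts, so the GC limit bears on these positions as well. The start site itself had a GC content under 50% for 307 peaks and of 50% or more for 480 (61.0%). In the first set 42.0% of summits were within 100 bp of the start, and in the second 9.58%.

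Sequence content was compared between these sets. All 20 peaks with a control level over 50 fragments were among the 307 at GC-poor starts, and their part in the differences below was not tested. The Tcf/Lef core was in 9.12% of peaks at GC-poor starts and in 13.96% of those beside GC-rich starts, a difference of -4.84 points (-9.19 to -0.15). For the Runx core the shares were 17.6% and 16.7%, and the interval of the difference, -4.35 to 6.49 points, included 0. For an ETS core they were 24.4% and 17.3%, a difference of 7.14 points (1.37 to 13.1).

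**Figure D4:**
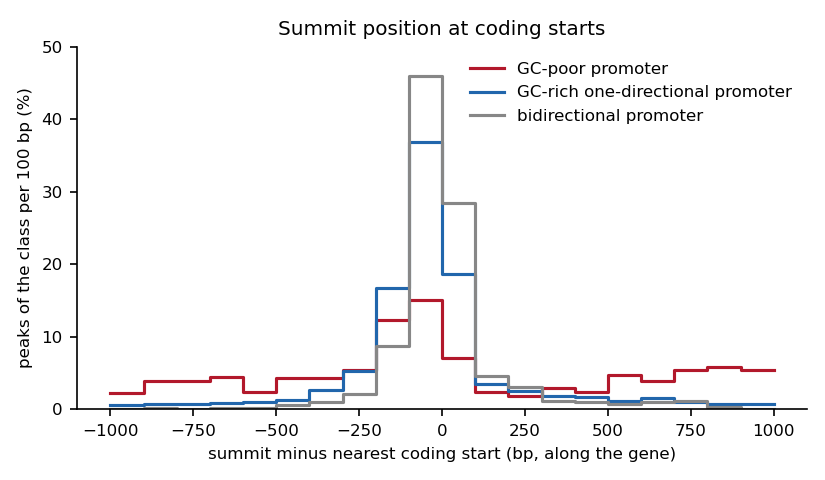
Distribution of summits relative to the nearest coding start, in bp along the gene, as percent of each class per 100 bp. GC-poor promoter peaks (red) have a low maximum at the start and stay above the other classes beyond 500 bp on both sides.

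Seen from the side of the genes, GC-poor starts seldom had a peak. Of 5447 coding genes whose 5'-most start had a GC content under 50%, 459 (8.43%, 7.72 to 9.19) had any deposited peak within 1 kb, against 7021 of 15963 GC-rich ones (44.0%), a difference of -35.6 points (-36.6 to -34.5). The share went from 3.45% under 40% GC to 57.2% between 65 and 70%, and was 53.4% at 70% or more. In the 201 bp at GC-poor starts the Tcf/Lef core was found in 3.92% (2.49 to 6.11) of those with a peak and in 3.61% (3.13 to 4.16) of those without, and the interval of the difference was -1.22 to 2.56 points. For the Runx core the shares were 6.54% and 6.76% (-2.27 to 2.503). The ETS core with a CpG was in 7.41% (5.35 to 10.2) of GC-poor starts with a peak and in 0.72% (0.522 to 0.998) of those without. AGGAAGT was in 12.2% and 7.62% (difference 4.58 points, 1.79 to 7.97) and the Sp/KLF box in 4.36% and 1.002% (3.35 points, 1.803 to 5.64). For the TATA box the order was the other way, with 3.92% (2.49 to 6.11) and 8.26% (7.53 to 9.06). GC content was not matched between the starts with and without a peak, and its part in these shares was not tested.

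**Figure D5:**
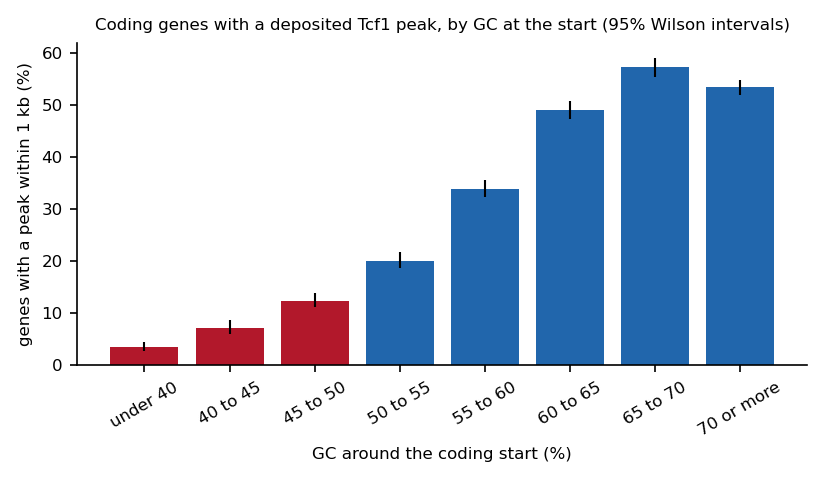
Percentage of coding genes with a deposited Tcf1 peak within 1 kb of their 5'-most start, by GC content of the 201 bp at that start, with 95% Wilson intervals. The GC-poor bands (red) run from 3.45% to 12.4%, and the share reaches 57.2% between 65 and 70% GC.

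The share of genes with a GC-poor promoter peak was taken for lists of T cell and comparison genes. Gene lists were matched by symbol, of which coding genes had 21281, whereas the 21410 coding starts above were counted by gene identifier, and some symbols have several identifiers. Over the 21281 the share with such a peak was 3.44%, and 11.8% of the genes with any one-directional promoter peak had a GC-poor one. No set test was run on the lists that follow, which differ from all genes in many ways besides GC content. Whether genes that are active in T cells are more often bound whatever their GC content was not tested.

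Of 25 coreceptor and costimulatory receptor genes, 8 had a GC-poor promoter peak, and these were 61.5% of the list's genes with a one-directional peak. All 8 were high-confidence. The pileup was 243 fragments at Tigit, 135 at Btla, an inhibitory receptor for HVEM, 133 at Cd28, the main costimulatory receptor, and 103 at Ctla4, its inhibitory counterpart. Of the 8 summits, 3 held the Runx core (Tigit, Btla and Cd28), 1 the Tcf/Lef core (Ctla4) and 3 an ETS core. Over all GC-poor promoter peaks these shares were 17.0%, 12.1% and 20.1%. Of 20 cytokine receptor genes, 8 had one, 7 of them high-confidence, with 142 fragments at Il12rb2, 121 at Il7r, the receptor for the survival cytokine of naïve T cells, 78 at Il2ra and 74 at Il18rap. Of 17 chemokine receptor and homing genes, 3 had one, Cxcr6 (156), Ccr4 (106) and Cxcr5 (48).

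Of 22 genes of the T cell receptor complex and proximal signalling, 6 had a GC-poor promoter peak, 5 of them a high-confidence one, with 144 fragments at the kinase Txk, 93 at the receptor chain gene Cd3d and 34 at the adaptor Fyb. Cd3d held the Tcf/Lef core, with its summit 45 bp upstream of the start. Of 38 T cell transcription factor genes, 12 had one, 10 of them high-confidence, and 27 had a GC-rich one. The largest were at Fli1 (163), Zeb1 (73), Tcf3 (66) and Nfatc3 (53). The Tcf/Lef core was in 0 of this list's 14 peaks. The Fli1 summit had a control level of 9.36, and its 32 bases occur 93 times in the genome.

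Interferon-inducible and effector genes were also found. Of 40 interferon-inducible genes, 12 had one, 11 of them high-confidence. The 12 were 42.9% of those with a one-directional peak, among them Gbp4 (242), Gbp3 (104), Slfn1 (98) and Ifi35 (87). The 32 bases at the Gbp4 summit occur 2 times in the genome. Cytotoxic and effector genes gave 3 of 13, with 69 fragments at the death ligand Fasl, 35 at Gzma and 21 at Tnf, the last below the fold limit. NK receptor genes gave 2 of 12, Klrd1 (123) and Klra1 (28), and Gimap6 (43) was the only one of 8 Gimap genes.

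The other lists held 0 to 2 such genes each. Cytosolic ribosomal protein genes gave 2 of 40, Rpl3 (44) and Rpl7 (27), although 31 had a GC-rich peak, and proteasome genes gave 1 of 31, Psmc1 (85), although 21 had a GC-rich one. MHC class I and antigen presentation genes gave 2 of 16, B2m (50) and H2-T24 (32), and integrin and adhesion genes 0 of 17, which allows a share of up to 18.4% (upper Wilson bound). Lists of other lineages held 1 gene each, Pou2af1 of 15 B cell genes and Itgam (65) of 18 myeloid genes. Of the markers of the sorted cells, Cd3d and Il7r had a GC-poor promoter peak, 7 of the 10 had a GC-rich one, and 0 of 3 B cell, 1 of 3 myeloid and 0 of 2 NK cell markers had a one-directional peak, the myeloid one being Itgam. A peak list measures binding and not expression, so it does not test the purity of the sort.

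Many genes had further Tcf1 peaks. A GC-rich one-directional peak was also assigned to 225 of the 733 genes (30.7%), and 46 genes had 2 or more GC-poor promoter peaks, up to 4 at Oxr1 and at Wipf1. These were low, with 21 to 28 fragments at Oxr1, an oxidation resistance gene, and 23 to 39 at Wipf1, a partner of the Wiskott-Aldrich syndrome protein. Another deposited summit lay within 10 kb of 489 peaks (62.1%, 58.7 to 65.5), against 42.1% of GC-rich one-directional and 32.9% of bidirectional promoter peaks. That share was not taken over all peaks or over peaks away from coding starts. These values therefore do not set GC-poor promoter peaks apart from peaks in general.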

How the data were processed

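Reads of both libraries were aligned by the authors to mm9 with Bowtie2 2.2.5, and peaks were called with MACS2 2.1.1.20160309 on paired-end fragments, with WT as treatment and Tcf1-deficient as control. Per the file headers, 36938606 WT and 27625250 control fragments were left after duplicate removal. The deposited pileup is a signal, the unscaled coverage by WT fragments at the summit. The deposited fold enrichment is a ratio of pileup plus 1 to control level plus 1, from which the control level was computed back. The deposited −log10 p and −log10 q come from a Poisson comparison of the libraries, not of the genotypes. Sequence was read from NCBIM37 (mm9).

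Shares have Wilson, differences Newcombe, medians order-statistic and pileups Poisson 95% intervals, which cover counting error or spread over peaks only. No tests were run. Class assignment, motif search and intervals were tested on simulated data. Python 3.11.15 with pandas 2.3.3 and scipy 1.17.1 was used. Members, gene lists and motifs were chosen with earlier results of these data known. Genes were named by rule: the 20 largest pileups, the 10 largest fold enrichments, the 10 largest with a Tcf/Lef core, up to 4 per gene list, 5 on each side of the GC limit, and genes with several peaks. Of 338 list genes, 335 were annotated, 3 of them matched by synonym. Alternatives covered the peak filter, start sites, distance, GC limit and windows. A few items that these rules name are not reported here.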

Additional observations from a re-analysis of the deposited data

Results flagged for a closer look

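GC-poor promoter peaks on chromosome X were outside the rule. There were 25, of which 19 were high-confidence, with the largest of these at Ogt, the O-GlcNAc transferase gene (102 fragments, fold enrichment 16.0), Gria3 (100) and Pin4 (96), all over a control level of 5.42. They are listed because they lie in data that the report's comparisons leave out. The peak of largest pileup on X was at Gm17503, with 183 fragments against a control level of 106.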

How the results depend on the processing

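Over 9 results and 13 alternatives, 84 of 105 values stayed within the main interval, or within 1.5 times for the number of peaks. The log2 difference in pileup and the median position, the only results that can be negative, did not change sign. A fold enrichment of at least 8 left 278 peaks with a median pileup of 78 fragments, the Tcf/Lef core in 16.5%, the Runx core in 23.02% and 2.96% of GC-poor coding starts with a peak. At least 4 gave a median pileup of 46 and 7.25% of such starts. A promoter distance of 500 bp left 465 peaks, with a median pileup of 46, a log2 difference from GC-rich promoters of 0.24, the Tcf/Lef core in 9.25%, 6.48% of GC-poor starts with a peak and a median position of -79 bp. A GC limit of 45% left 291 peaks, with the Runx core in 20.6%, 5.27% of starts with a peak and a median position of -28 bp. GC in 50 bp on each side gave 9.69% of starts with a peak. Motif windows of 50 bp on each side gave 9.15% for the Tcf/Lef, 11.7% for the Runx and 12.6% for an ETS core, as shorter windows hold fewer matches. Leaving out peaks with a control level over 50 fragments, an alternative chosen after seeing the data, left 767 peaks and kept the shares of cores, while the interval of the log2 difference in pileup, 0.11, then included 0 (-0.0062 to 0.18). It also included 0 with only the 5'-most start of each gene (0.11, -0.037 to 0.21). No paired analysis was possible because each genotype had 1 library. At the lowest control level the fold limit of 4 required a pileup of 25 fragments. The effect of depth was not tested.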
